A study of Homo sapiens with 12 samples.

Results

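The transcripts described are 9 genes of the interferon and double-stranded RNA response, IFIT1, IFIT2, IFIT3, IFI6, IFIH1, CCL5, ISG15, IRF1 and MX1, measured in Caco-2 cells transfected with siRNA targeted to ZNF658, a zinc finger protein. All probes named for them in the gene table were taken, which gave 11 of the 47231 probes on the array. Of these, 9 probes of 7 genes were among the 14804 probes tested. The genes were chosen by their measured values in the comparison of the first ZNF658 siRNA with its control, so that comparison is given here as a description and supports nothing.

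Caco-2 is a human colon adenocarcinoma line. RNA was hybridized to Illumina HT12 bead chips from 4 groups of 3 arrays, all transfected with Lipofectamine RNAiMAX. ZNF658 siRNA 1 and control siRNA 1, a sense control, came from Ambion. ZNF658 siRNA 2, a pool of siRNAs, and control siRNA 2, a siGENOME non-targeting siRNA, came from Dharmacon. Every group thus received siRNA, and no group was left without transfection, so a level that all 4 groups share cannot be set against untransfected cells. Both controls are given in the sample labels, while a listing of siRNAs supplied with the study assigns the Dharmacon control alone to array work. None of the named probes is for ZNF658, so the knockdown was not read from the arrays.

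Cells recognize double-stranded RNA in the cytoplasm through the helicases RIG-I and MDA5, the product of IFIH1, and in endosomes through TLR3. Their signals activate IRF3 and NF-kappaB, which induce interferons and, directly, some antiviral genes. Secreted interferon then acts through JAK and STAT proteins on an element in target promoters, the interferon-stimulated response element (ISRE).

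The promoters of these genes are shown because the ISRE is an element through which interferon acts on target promoters. RefSeq promoter windows (GRCh38.p14, 250 bases before to 50 after a start site) were held for 7 of the 9 genes, 10 windows in all. They were searched on both strands for the ISRE core GAAANNGAAA, for the STAT element GAS with the letters TTCNNNGAA, for the NF-kappaB consensus and for the ZTRE, the element that ZNF658 binds. The stretches below run 5′ to 3′ on the gene's strand from 25 bases before the first match to 25 after the last. Capitals mark matches to the ISRE core (in IFIT1, IFIT3, IFI6, IFIH1 and ISG15, as the reverse complement where the match lies on the opposite strand), the GAS (IRF1) or the NF-kappaB consensus (IFIH1 at positions -76 to -67 and IRF1 at -50 to -41), and neighboring ISRE matches in IFIH1 and ISG15 overlap.
IFIT1, chr10:89392482-89392554, forward strand: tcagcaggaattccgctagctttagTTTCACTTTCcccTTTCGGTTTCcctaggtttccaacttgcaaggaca
IFIT3, chr10:89327816-89327909, forward strand: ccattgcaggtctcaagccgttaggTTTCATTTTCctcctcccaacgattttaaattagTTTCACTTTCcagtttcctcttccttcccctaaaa
IFI6, chr1:27672251-27672373, reverse strand: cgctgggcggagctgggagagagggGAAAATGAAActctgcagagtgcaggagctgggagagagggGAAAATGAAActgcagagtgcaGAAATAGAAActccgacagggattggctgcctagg
IFIH1, chr2:162318671-162318868, reverse strand: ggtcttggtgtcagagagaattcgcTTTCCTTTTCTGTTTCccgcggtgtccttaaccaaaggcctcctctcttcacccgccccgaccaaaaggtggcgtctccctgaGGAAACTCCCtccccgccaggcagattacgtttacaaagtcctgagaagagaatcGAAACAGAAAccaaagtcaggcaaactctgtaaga
ISG15, chr1:1013359-1013424, forward strand: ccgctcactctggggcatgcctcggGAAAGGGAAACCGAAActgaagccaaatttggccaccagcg
IRF1, chr5:132490789-132490922, reverse strand: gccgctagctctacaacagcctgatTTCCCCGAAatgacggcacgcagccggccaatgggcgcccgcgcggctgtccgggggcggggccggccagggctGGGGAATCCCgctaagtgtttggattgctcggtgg

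The ISRE core was matched in 8 of the 10 windows, from 6 genes (IFIT1, IFIT3, IFI6, IFIH1, ISG15 and MX1), and in 3.57% of all 35116 promoter windows. IRF1, itself a transcription factor that binds such elements, had no ISRE core in its window but 1 GAS and 1 NF-kappaB match. The GAS was matched in 2 of the 10 windows, from IRF1 and MX1, and in 7.66% of all windows. The NF-kappaB consensus was matched in 4 of the 10, from IFIH1, IRF1 and MX1, and in 11.3% of all windows. The ZTRE was matched in 1 of the 10 windows, a window of MX1, and in 22.2% of all windows. IFIT1, with 2 ISRE matches between positions -116 and -94, and IFI6, with 3 between -156 and -84, both carried the element. A match is a description of letters and not of a bound site.

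Levels are log2 intensities after background correction and quantile normalization, and a probe counts as detected on an array where its detection P value, the rank of its signal among negative control probes, is under 0.01. A probe was tested where it was detected on all 3 arrays of at least 1 group. Detection was on all 12 arrays for 5 of the 11 member probes (both probes of IFI6, ISG15, IRF1 and 1 probe of CCL5) and on 1 to 11 arrays for the other 6. Between 9 and 10 of the 11 were detected on each ZNF658 siRNA 1 array, 6 to 7 on each control siRNA 1 array, 8 on each ZNF658 siRNA 2 array and 5 to 10 on each control siRNA 2 array. CCL5 ILMN_1773352 was tested only because it was detected on all siRNA 1 arrays, so it had to read higher there, and IFIT1 and IFIT2 were tested through their detection on the arrays of both ZNF658 siRNAs. In RNA from whole cultures, fewer cells of a type and less RNA per cell cannot be told apart.

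Some arrays stood apart from their own group, in the siRNA 2 pair and in the siRNA 1 pair. ZNF658 siRNA 1 replicate 3 was closer to every array of its control (correlations between 0.982 and 0.990) than to its fellow replicates (0.979 and 0.981). For control siRNA 1 replicate 1 the correlations were between 0.983 and 0.985 inside the group. Against the ZNF658 siRNA 1 arrays they spread more widely, between 0.977 and 0.990. The correlation of replicate 3 of control siRNA 2 with the rest of its group was 0.945 to 0.948, and replicate 3 of ZNF658 siRNA 2 correlated at up to 0.989 with control siRNA 2 arrays and at 0.971 to 0.983 with its own group. Results that include the siRNA 2 pair are therefore given also without these 2 arrays. Arrays of the siRNA 1 pair were left out only singly. The probe for 18S rRNA ranged from 9.57 to 14.74 over the 12 arrays. Of 17 markers fixed for colon epithelium, 9 were named on the array, and 8 of them (CDX2, EPCAM, CDH1, KRT8, KRT18, KRT19, CDH17 and APOA1) were detected on all 12 arrays and APOB on some. Of 10 leukocyte markers 4 were named, with CD14 and CD68 detected on all arrays and LYZ and FCGR3A on some, and their summed log2 level ran from 9.83 to 10.34 with siRNA 1, from 9.94 to 10.35 with control siRNA 1, from 9.77 to 10.17 with siRNA 2 and from 9.46 to 10.23 with control siRNA 2. Of 7 fibroblast markers 3 were named, COL1A1 and COL1A2 detected on all arrays and LUM on some, with a summed log2 level of 9.97 to 10.80 with siRNA 1, 9.88 to 10.45 with control siRNA 1, 10.27 to 11.09 with siRNA 2 and 10.28 to 10.80 with control siRNA 2. All arrays were from cultures of the Caco-2 line, and the source of these marker signals was not tested.

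**Figure D1:**
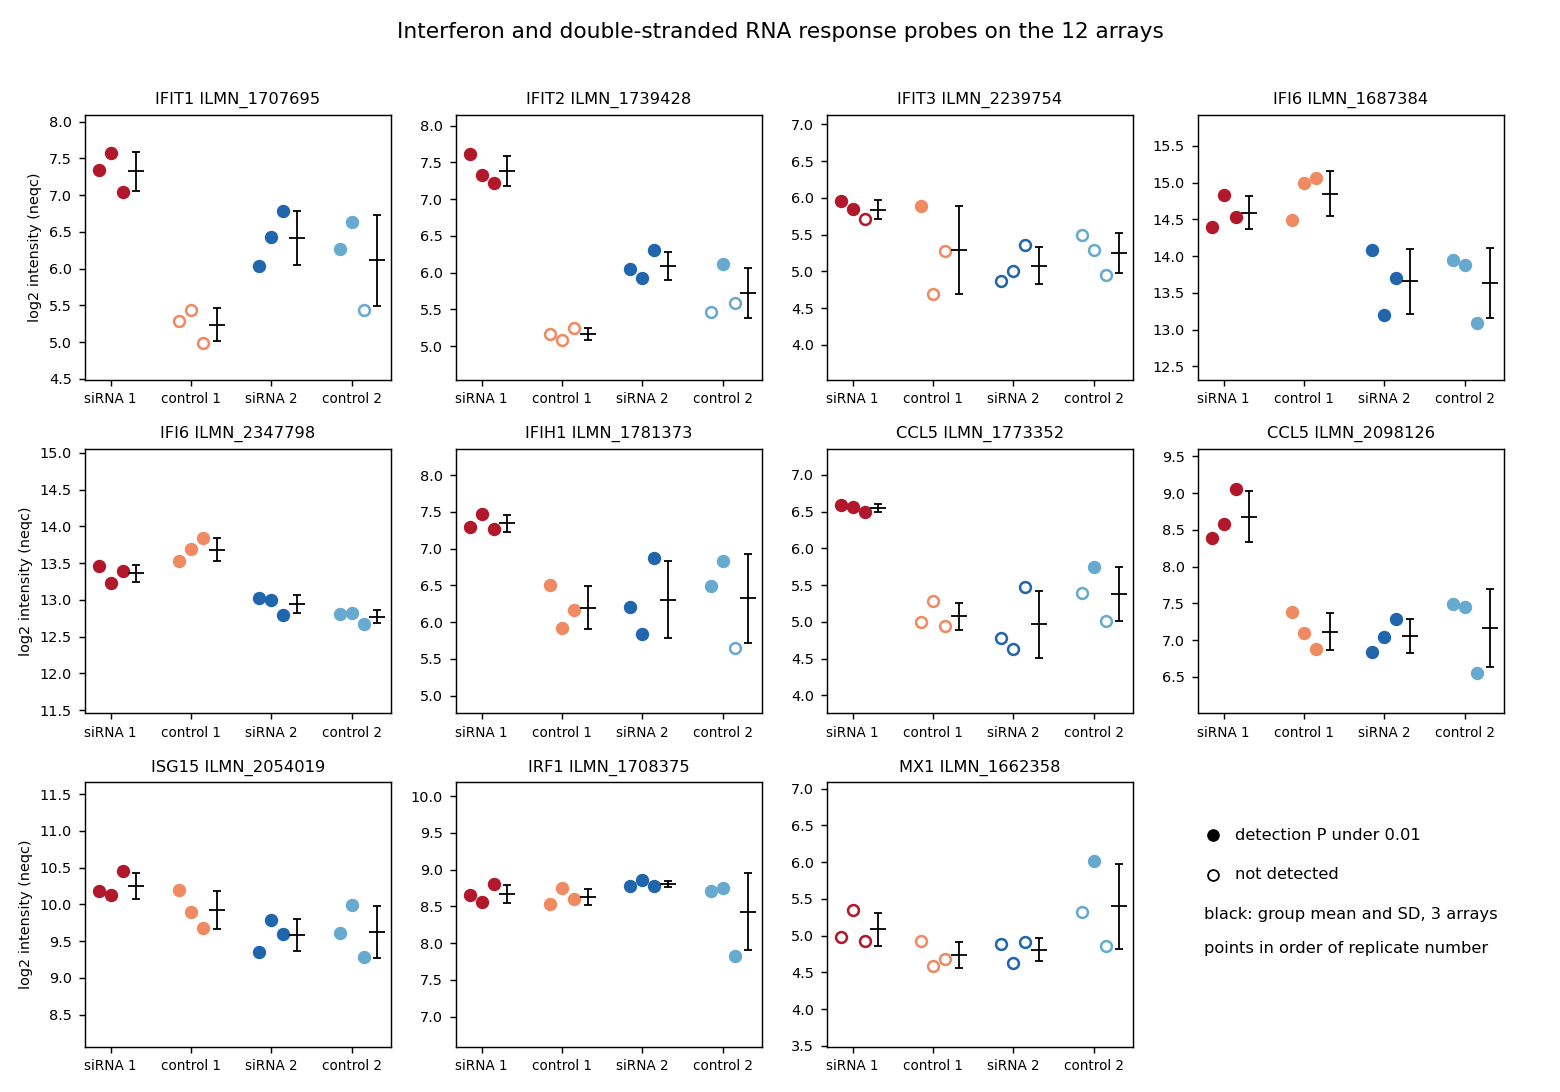
Log2 intensity of each of the 11 probes on the 12 arrays, by group, with filled points where the probe was detected (detection P under 0.01), open points where it was not, and the group mean and SD (3 arrays) in black. IFIT1, IFIT2, IFIH1 and both CCL5 probes read higher on the 3 ZNF658 siRNA 1 arrays than on the other 9, while both IFI6 probes read higher on the 6 arrays of the siRNA 1 pair than on the 6 of the siRNA 2 pair.

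IFIT1, IFIT2 and IFIT3 encode tetratricopeptide repeat proteins that bind viral RNA or block its translation, and they are among the transcripts most readily induced by interferon. IFIT2 (ILMN_1739428) read 7.61, 7.33 and 7.22 on the ZNF658 siRNA 1 arrays and 5.16, 5.08 and 5.25 on those of control siRNA 1. With ZNF658 siRNA 2 it read 6.04, 5.93 and 6.30, and with control siRNA 2 5.47, 6.12 and 5.59. The 3 siRNA 1 arrays lay above all others, the 3 control siRNA 1 arrays lay below all others, and the siRNA 2 pair lay between them and overlapped. IFIT2 was detected on every array of both ZNF658 siRNAs, on 1 control siRNA 2 array and on no control siRNA 1 array, where its detection P values were 0.0675 to 0.147. The difference with siRNA 1 was therefore bounded, at least 3.17-fold higher than the detection level of the control arrays. The fitted log2 difference was 2.22 (standard error 0.23).

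IFIT1 (ILMN_1707695) followed the same order. It read 7.35, 7.57 and 7.05 with siRNA 1 and 5.29, 5.43 and 4.99, undetected throughout, with control siRNA 1. It read 6.04, 6.43 and 6.78 with siRNA 2 and 6.26, 6.64 and 5.43 with control siRNA 2, in which replicate 3 was not detected. The groups of the siRNA 1 pair did not overlap, and those of the siRNA 2 pair did. IFIT1 was at least 3.03-fold higher with siRNA 1 than its control, with a fitted log2 difference of 2.09 (standard error 0.30).

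IFIT3 (ILMN_2239754), the third member of the family, was detected on 2 of 3 siRNA 1 arrays and 1 of 3 control siRNA 1 arrays and so was not tested. It read 5.96, 5.85 and 5.71 with siRNA 1 and 5.89, 4.69 and 5.28 with control siRNA 1, which overlapped. With siRNA 2 it read 4.87, 5.00 and 5.36 and with control siRNA 2 5.49, 5.28 and 4.95, all undetected. At these levels a difference between groups was not measurable for IFIT3.

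IFIH1 encodes MDA5, a cytoplasmic sensor of long double-stranded RNA, and is itself induced by interferon. It read 7.29, 7.47 and 7.26 with siRNA 1 and 6.50, 5.92 and 6.16 with control siRNA 1, without overlap. With siRNA 2 it read 6.20, 5.84 and 6.87 and with control siRNA 2 6.49, 6.82 and 5.64. The last of these was the 1 array on which IFIH1 was not detected. The log2 difference with siRNA 1 was 1.15 (standard error 0.31), a 2.22-fold higher level.

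CCL5 encodes RANTES, a chemokine that draws T cells and monocytes and is induced through IRF3 and NF-kappaB. Probe ILMN_2098126, detected on all 12 arrays, read 8.38, 8.58 and 9.06 with siRNA 1 and 7.38, 7.09 and 6.88 with control siRNA 1. It read 6.83, 7.04 and 7.29 with siRNA 2 and 7.49, 7.44 and 6.55 with control siRNA 2, and both of these groups overlapped control siRNA 1. Its log2 difference with siRNA 1 was 1.56 (standard error 0.27), or 2.95-fold. Probe ILMN_1773352 read 6.59, 6.56 and 6.49 with siRNA 1, where it was detected on all arrays, and between 4.95 and 5.28 with control siRNA 1, where it was detected on none. With siRNA 2 it read 4.64 to 5.48 and was not detected, and with control siRNA 2 it read 5.01 to 5.75 and was detected on 1 array. The 2 CCL5 probes ran the same way with siRNA 1, ILMN_1773352 with a bound of at least 1.77-fold and a fitted log2 difference of 1.47 (standard error 0.27).

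ISG15 and IRF1 overlapped between siRNA 1 and its control. ISG15 encodes a ubiquitin-like protein that is joined to other proteins during the interferon response. It read 10.19, 10.12 and 10.45 with siRNA 1 and 10.20, 9.90 and 9.68 with its control, a log2 difference of 0.33 (standard error 0.20) with overlap. It read 9.35, 9.78 and 9.60 with siRNA 2 and 9.60, 9.99 and 9.28 with control siRNA 2. IRF1 read 8.66, 8.56 and 8.80 with siRNA 1 and 8.54, 8.76 and 8.60 with its control, a log2 difference of 0.04 (standard error 0.22) with overlap. MX1 (ILMN_1662358) encodes a dynamin-like GTPase that restricts influenza and other viruses and is a commonly used marker of type I interferon. It was detected on 1 of 12 arrays, replicate 2 of control siRNA 2, where it read 6.02, and was undetected at 4.93 to 5.34 with siRNA 1 and 4.59 to 4.93 with control siRNA 1. MX1 was not tested, and at these levels no difference was measurable.

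IFI6, a small mitochondrial and endoplasmic reticulum protein induced by interferon, was detected on all 12 arrays by both of its probes. ILMN_1687384 read 14.40, 14.84 and 14.54 with siRNA 1, 14.49, 14.99 and 15.06 with control siRNA 1, 14.08, 13.20 and 13.70 with siRNA 2, and 13.94, 13.88 and 13.08 with control siRNA 2. ILMN_2347798 read 13.46, 13.23 and 13.39, 13.53, 13.69 and 13.83, and 12.81, 12.83 and 12.68 on the arrays of siRNA 1, control siRNA 1 and control siRNA 2, and between 12.80 and 13.03 with siRNA 2. For both probes the 6 arrays of the siRNA 1 pair lay above the 6 of the siRNA 2 pair, which held for 2.31% of all tested probes. Within the siRNA 1 pair the log2 differences were -0.26 (standard error 0.24) and -0.32 (standard error 0.12), with overlap for the first probe and with the siRNA 1 arrays below the control arrays for the second. The direction depended on the control: against control siRNA 2 the siRNA 1 arrays stood higher, by 0.96 for ILMN_1687384 (adjusted P = 0.075 from limma, not called) and 0.59 for ILMN_2347798 (adjusted P = 0.0224, called).

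In the siRNA 1 comparison 2 of the 9 tested probes, IFIT2 and IFIT1, were called higher (adjusted P under 0.05 over all tested probes and at least 1.2-fold), and these 2 were also the only calls among all 14804 (0.0135% called higher, 0% lower). At an unadjusted P under 0.05 there were 1067 probes. The groups did not overlap for 5 member probes in the higher direction and 1 in the lower, against 8.19% and 8.46% of all tested probes. Ranked by log2 difference from the highest, IFIT2, IFIT1, both CCL5 probes and IFIH1 stood at places 1, 2, 3, 4 and 8. Their 3 siRNA 1 arrays lay above the other 9 arrays, as they did for 0.946% of all tested probes. The size of these differences, bounds included, holds for background corrected values. Without background correction the log2 differences of IFIT2 and IFIT1 were 0.94 and 0.88, and in the table normalized by the authors they were 0.67 and 0.63, with both probes called in each. Since these values chose the genes, nothing is read from their number.

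**Figure D2:**
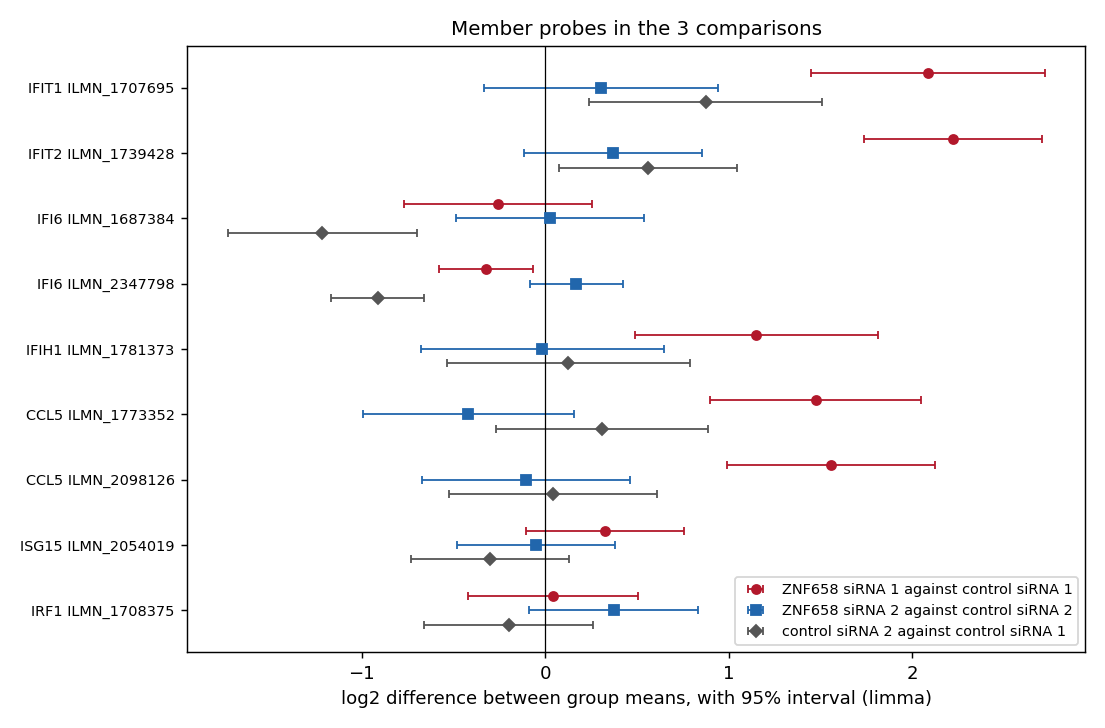
Log2 difference between group means with its 95% interval from the limma fit for the 9 tested probes, in the comparison of each ZNF658 siRNA with its own supplier's control and of control siRNA 2 with control siRNA 1. The siRNA 1 differences of IFIT1, IFIT2, IFIH1 and CCL5 run from 1.15 to 2.22, all siRNA 2 intervals include 0, and both IFI6 probes lie below 0 between the controls.

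ZNF658 siRNA 2 against its own control asked whether a second way of targeting the same transcript moved these genes. The genes were chosen with earlier results of these data known, so this comparison cannot be called separate from that choice. The siRNA 1 arrays also entered this comparison through the shared estimate of spread and through the detection filter, by which alone CCL5 ILMN_1773352 was tested. None of the 9 member probes was called or reached an unadjusted P under 0.05, and no probe of all tested was called in either direction (0% higher, 0% lower by limma, with 837 probes at an unadjusted P under 0.05). IFIT2 had a log2 difference of 0.37 (95% interval -0.12 to 0.85, adjusted P = 0.920 from limma) and IFIT1 one of 0.30 (-0.33 to 0.94, adjusted P = 0.964). IFIH1 stood at -0.02 (-0.68 to 0.65, adjusted P = 0.999). CCL5 ILMN_2098126 stood at -0.10 (-0.67 to 0.46, adjusted P = 0.997). CCL5 ILMN_1773352 was undetected on all siRNA 2 arrays and on 2 of 3 control arrays, so no size or direction is given for it (adjusted P = 0.923).

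ISG15 had -0.05 (-0.48 to 0.38), and IFI6 had 0.03 (-0.49 to 0.54) and 0.17 (-0.08 to 0.42), with adjusted P values of 0.999, 0.999 and 0.934. IRF1 was the 1 member probe whose groups did not overlap, with siRNA 2 higher, against 4.99% of all tested probes, and for 0 members siRNA 2 lay lower without overlap, against 4.49%. It read 8.78, 8.85 and 8.78 with siRNA 2 and 8.71, 8.76 and 7.83 with control siRNA 2, a log2 difference of 0.37 (-0.09 to 0.84, adjusted P = 0.920), and the gap between the groups was small beside the distance of replicate 3 of the control from the others. The median over the 9 member probes was 0.03 beside 0.00 over all tested probes.

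The array replicate 3 of control siRNA 2 gave the lowest value of its group for 8 of the 9 tested member probes, as it did for 49.5% of all tested probes, and replicate 3 of ZNF658 siRNA 2 gave the highest value of its group for 5 of the 9, as for 39.4% of all. Without these 2 arrays the siRNA 2 differences were 0.20 for IFIT2, -0.22 for IFIT1, -0.64 for IFIH1, -0.53 for CCL5 ILMN_2098126 and 0.09 for IRF1. The adjusted P values of the 9 member probes were then between 0.116 and 0.809, so no member was called with or without the arrays, while the calls over all tested probes went from 0 to 268. The IFIT1 difference changed sign, and those of IFIH1 and CCL5 ILMN_2098126 moved further below 0.

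The difference of the 2 siRNA effects uses the siRNA 1 arrays too and is given as a description. It was 1.85 for IFIT2 (standard error 0.32), 1.78 for IFIT1 (0.42), 1.66 and 1.89 for the CCL5 probes (0.38 for each) and 1.17 for IFIH1 (0.44) on the log2 scale. IFIT1, IFIT2 and CCL5 ILMN_1773352 were undetected in at least 1 whole group of it, so their sizes are fitted values only. No member probe and 0% of all tested probes were called, against 1597 at an unadjusted P under 0.05. Without the 2 arrays numbered 3 in the siRNA 2 pair, 5 member probes were called, those of IFIT1, IFIT2 and IFIH1 and both of CCL5, among 1427 calls in all.

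The controls themselves were compared because the siRNA 1 and siRNA 2 effects rest on different ones. Control siRNA 2 against control siRNA 1 gave 301 calls, 0.507% of tested probes higher and 1.53% lower. This comparison shares the control siRNA 1 arrays with the one that chose the genes, so its P values are those of the fit and no separate support. Both IFI6 probes were called lower with control siRNA 2. ILMN_2347798 was 1.88-fold lower, with a log2 difference of -0.91 (95% interval -1.17 to -0.66, adjusted P = 0.000533 from limma), and ILMN_1687384 was 2.32-fold lower, at -1.21 (-1.73 to -0.70, adjusted P = 0.0149). Neither probe overlapped between the controls, as was so for 11.3% of all tested probes in that direction. Without the 2 arrays numbered 3 these were -0.86 (adjusted P = 0.000739) and -0.94 (adjusted P = 0.0185). ILMN_2347798 lost its call with median scaling (-0.65, adjusted P = 0.0998), and ILMN_1687384 lost its call without replicate 2 or 3 of control siRNA 1 (adjusted P = 0.0885 and 0.0908).

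IFIT1 and IFIT2 were not called between the controls (adjusted P = 0.167 and 0.257 from limma). Both were undetected on all control siRNA 1 arrays, whose detection level averaged 5.72, and IFIT2 was also undetected on 2 of 3 control siRNA 2 arrays. The control siRNA 2 mean was 6.11 for IFIT1 and 5.72 for IFIT2, so IFIT2 had no measurable difference between the controls. The arrays of the 2 controls did not overlap for either probe, as was so for 9.22% of all tested probes in that direction. Without replicate 3 of control siRNA 2, IFIT1 was called higher with control siRNA 2 (adjusted P = 0.0182). IFIT1 was called higher too without the 2 arrays numbered 3 (adjusted P = 0.0114 from limma), while IFIT2 was not called (adjusted P = 0.160). IFIH1, ISG15, IRF1 and the CCL5 probes had log2 differences of -0.30 to 0.31 between the controls and overlapped. Without the 2 arrays numbered 3 these became 0.47 for IFIH1, 0.50 and 0.35 for CCL5 ILMN_1773352 and ILMN_2098126, -0.13 for ISG15 and 0.10 for IRF1, with adjusted P values of 0.259 to 0.753. The level of IFIT1 in the siRNA 2 pair thus lay between its levels with siRNA 1 and control siRNA 1, and the order of the group means was siRNA 1 (7.32), siRNA 2 (6.42), control siRNA 2 (6.11) and control siRNA 1 (5.24). The middle pair of groups overlapped. The other neighboring pairs did not, although the lowest control siRNA 2 array and the highest control siRNA 1 array both read 5.43. The same order of means held for IFIT2, at 7.39, 6.09, 5.72 and 5.16, with the lower 2 at or under the detection level.

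The 18S rRNA level varied widely between arrays, and its part in the results was not tested. It read 9.58, 9.57 and 10.70 with siRNA 1 and 10.74, 14.55 and 14.74 with control siRNA 1. With siRNA 2 18S read 13.99, 14.55 and 9.88 and with control siRNA 2 10.21, 10.06 and 11.56. The level of 18S was thus high on 2 control siRNA 1 arrays and 2 siRNA 2 arrays.

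**Figure D3:**
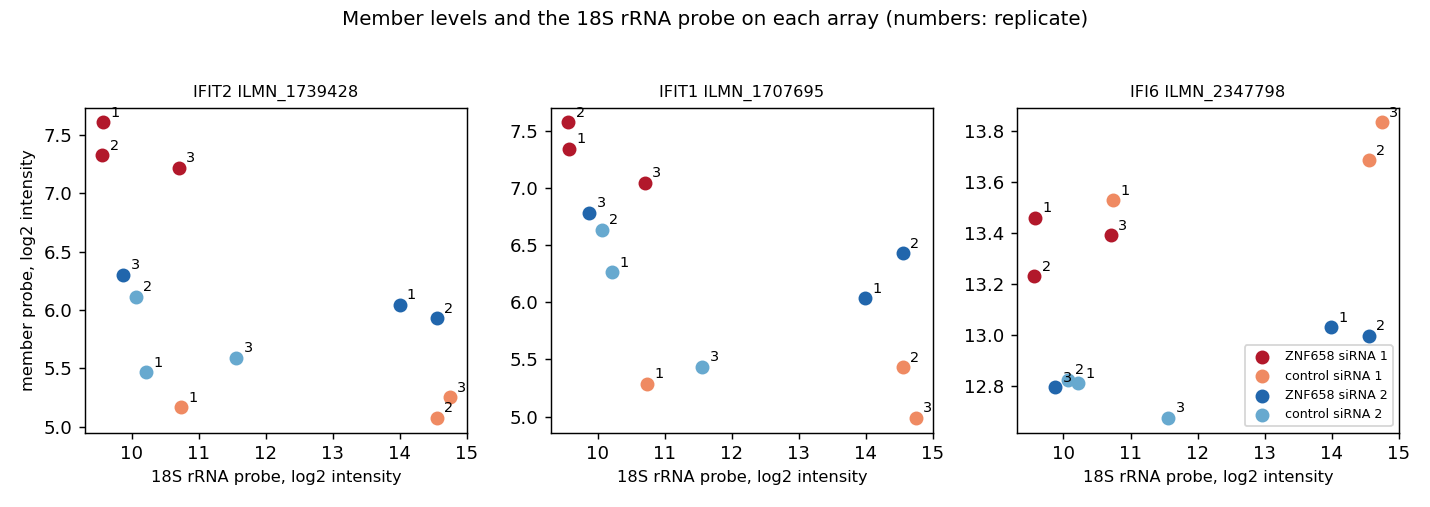
Log2 intensity of the IFIT2, IFIT1 and IFI6 ILMN_2347798 probes against that of the 18S rRNA probe on each of the 12 arrays, colored by group and numbered by replicate. The 18S level runs from 9.57 to 14.74, with 2 control siRNA 1 and 2 ZNF658 siRNA 2 arrays at 13.99 or above.

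Across the 12 arrays the members differed in how closely they followed IFIT2. Pearson's r with IFIT2 was 0.92 for IFIT1, 0.84 and 0.81 for the CCL5 probes and 0.81 for IFIH1, and it was 0.50 for ISG15, 0.18 for IRF1 and 0.07 and -0.06 for the IFI6 probes. The 12 arrays share 4 groups, and these values carry no test. After the group means were removed, r among these 5 probes of IFIT1, IFIT2, IFIH1 and CCL5 ran from 0.04, for IFIT2 and CCL5 ILMN_2098126, to 0.81, for IFIT1 and CCL5 ILMN_1773352. IFIT1 was detected on 8 of the 12 arrays, IFIT2 on 7 and CCL5 ILMN_1773352 on 4, so part of what these values compare is background signal. Outside the members the 8 named probes most like IFIT2 were those of SOX15 (0.94), CSF1R (0.88), ENPP5 (0.88), ASF1A (0.85), ASB3 (0.84), SLC39A7 (0.84), AFTPH (0.83) and PALM2AKAP2 (0.83). None of the 8 is on the fixed lists of the pathway, and their log2 differences with siRNA 1 ran from 0.56 for SOX15 to 1.06 for ENPP5, none of them called.

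Other genes of the pathway were taken from 6 lists, from the ligand to the effector. None of 13 interferon genes, the ligands, was named in the gene table, so their transcripts were not read. Of 21 sensors of double-stranded RNA and their signalling partners 13 were tested, and 0 of their 16 probes were called in any comparison by limma, with 1 at an unadjusted P under 0.05 in each. RIGI, the sensor of short double-stranded RNA with a 5′ triphosphate, had log2 differences of 0.21 (standard error 0.20) with siRNA 1 and -0.22 (0.20) with siRNA 2. MAVS, the adaptor of RIG-I and MDA5, had 0.64 (0.36) with siRNA 2 and 1.21 (adjusted P = 0.0533 from limma) without the 2 arrays numbered 3. TANK, which binds the kinase TBK1, had -0.49 (0.16) between the controls by ILMN_1715069 and 0.23 (0.28) by ILMN_2292387, so its probes disagreed. With siRNA 1 these probes had -0.18 (0.16) and 0.74 (0.28), neither called. ILMN_2292387 read 6.60 to 7.24 with siRNA 1 and 6.03 to 6.37 with control siRNA 1. The median over the tested sensors with siRNA 1 was 0.01 beside -0.01 over all tested probes.

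Of 19 receptor and JAK-STAT genes 11 were tested. IFNGR1, a chain of the interferon gamma receptor, was called lower with control siRNA 2 than with control siRNA 1 (log2 difference -0.85, standard error 0.21, adjusted P = 0.0476 from limma), with levels of 8.95 to 9.74 against 10.01 to 10.32, and -0.65 (adjusted P = 0.0491) without the 2 arrays numbered 3. IFNAR2, a chain of the type I interferon receptor, had a log2 difference of 0.58 (0.23) with siRNA 1 and JAK1, a kinase of all interferon receptors, 0.52 (0.32), neither called. PIAS1 passed for the difference of the effects only without the 2 arrays numbered 3 (-0.81, adjusted P = 0.0438, against -0.68, adjusted P = 0.353, with them). The median of this list with siRNA 1 was -0.06.

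Of 63 interferon-stimulated effectors other than the members 28 genes were tested, and 0 of their 38 probes were called in any comparison by limma, with 1, 1 and 4 at an unadjusted P under 0.05 with siRNA 1, with siRNA 2 and between the controls. Without the 2 arrays numbered 3, UBE2L6 (0.69, adjusted P = 0.0239) and EPSTI1 (0.76, adjusted P = 0.0174) passed between the controls and ISG20 for the difference of the effects (1.83, adjusted P = 0.00557). These 3 were picked out after their values were seen. With siRNA 1, 17 of the 28 stood above 0 and 11 below, with a median of 0.07 beside -0.01 over all tested probes. The largest difference was that of ISG20, a 3′ exonuclease that degrades viral RNA, which read 7.27 to 7.68 with siRNA 1 and 6.50 to 6.66 with control siRNA 1 (log2 difference 0.92, standard error 0.28). With siRNA 2 ISG20 stood at -0.37 (0.28), and at -0.91 (adjusted P = 0.0552) without the 2 arrays numbered 3. GBP2, a guanylate-binding GTPase, read 5.86 to 6.10 with siRNA 1 and 5.31 to 5.59 with control siRNA 1. The control values lay under the detection level of those arrays, which averaged 5.72. GBP2 was tested only because it was detected on all siRNA 1 arrays, so it had to read higher there and no size is given. OAS1, which makes the activator of RNase L, had -0.41 (0.30) with siRNA 1. Between the controls IFITM1, a membrane protein that restricts viral entry, had -0.95 (0.25, adjusted P = 0.0705), with levels of 7.24 to 8.07 with control siRNA 2 against 8.47 to 8.94. IFITM1 thus ran in the direction of IFI6 between the controls and was not called.

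Of 20 genes of MHC class I presentation 11 were tested and 0 of their 12 probes were called by limma, with 0 at an unadjusted P under 0.05 with either ZNF658 siRNA and 2 between the controls. TAP1, a peptide transporter induced by interferon gamma, had log2 differences of 0.30 (0.27) with siRNA 1 and 0.46 (0.27) between the controls. The list's median with siRNA 1 was 0.04. Of 35 chemokines and NF-kappaB targets other than CCL5 12 were tested. CXCL16, a chemokine that is also a membrane protein, was called higher with control siRNA 2 than with control siRNA 1 (1.11, standard error 0.26, adjusted P = 0.0407 from limma), at 7.61 to 8.10 against 6.42 to 7.14, and 1.28 (adjusted P = 0.00465) without the 2 arrays numbered 3. CCL2 passed between the controls only without those arrays (1.22, adjusted P = 0.0416, against 0.96, adjusted P = 0.182, with them). With siRNA 1 CXCL16 had 0.65 (0.26), CCL2 0.49 (0.34) and IL6 0.35 (0.20), none of them called, and IL32 had -0.65 (0.28). In the 5 lists with tested genes, 0 probes were called with either ZNF658 siRNA. That had to be so, since the only 2 calls over all tested probes, IFIT2 and IFIT1 with siRNA 1, were members. The count therefore says nothing of how the lists responded.

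**Figure D4:**
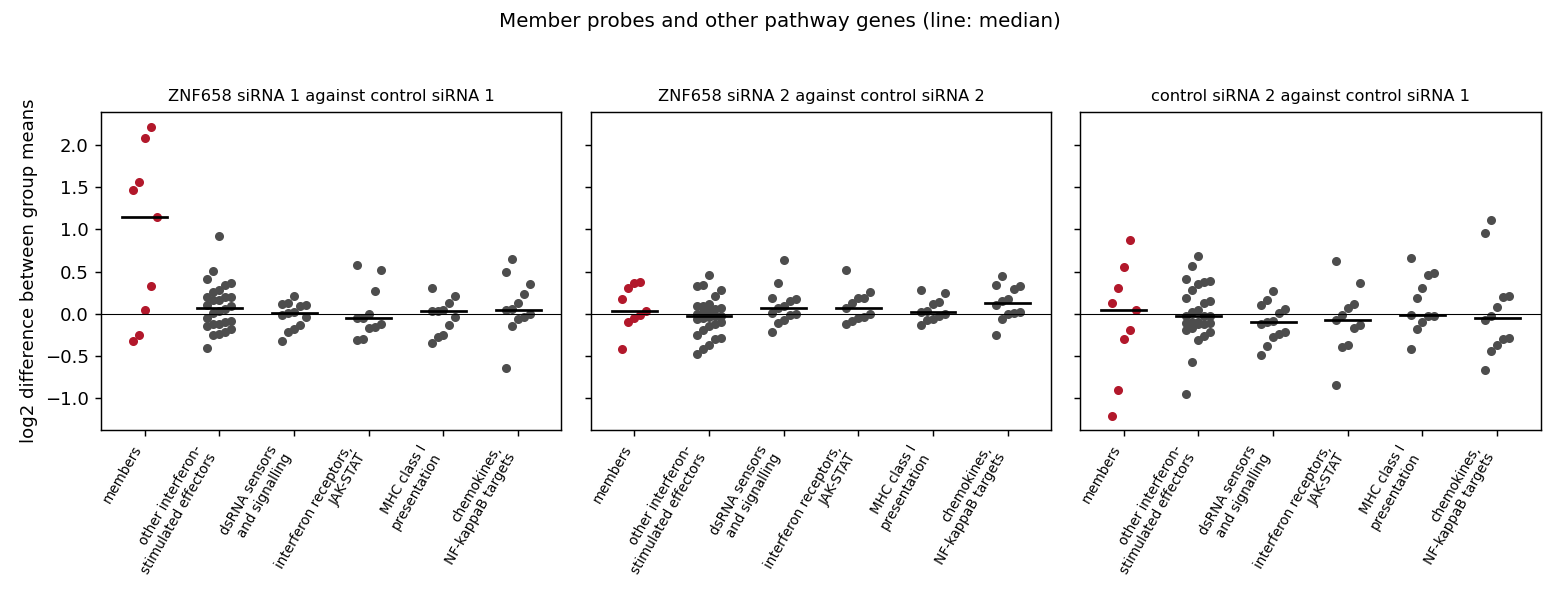
Log2 difference between group means for the 9 tested member probes (red) and for the brightest tested probe of each gene of the 5 measured pathway lists (gray), with medians as lines, in 3 comparisons. With siRNA 1 the member median is 1.15 and the list medians lie between -0.06 and 0.07, and with siRNA 2 the member median is 0.03. The members were chosen by their values with siRNA 1, so their higher median there follows from that choice and sets them apart from no list.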

How the data were processed

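Total RNA from Caco-2 cells was hybridized to 12 Illumina HT12 arrays. The authors exported mean bead intensities with detection P values for 47231 probes, deposited without normalization, and deposited a second table of normalized log2 values for 21105 probes. The submitters' processing notes name lumi, with no version. Here the function neqc (limma 3.58.1, R 4.3.3) corrected the intensities for background, with controls estimated from the detection P values and an offset of 16, and made quantiles equal between arrays. One lmFit over all 12 arrays, with eBayes and an intensity trend, tested 14804 probes. P values were adjusted by Benjamini-Hochberg over all of them, and calls needed an adjusted P under 0.05 and at least 1.2-fold. Where a probe was undetected throughout the lower group, a fold is a bound: the mean of the higher group against the lower group's mean of, per array, the larger of the probe's value and the lowest detected signal. The gene table gives 15540 probes 1 symbol each. The members and lists were chosen with earlier results of these data known. Genes of the lists are named from the probes called and the 4 with the largest differences in each comparison, of which the text gives some, chosen after their values were seen. Alternatives included the authors' table and leaving out each array. The rank product method of the study was not run. The code was tested on simulated data. Replicate numbers did not pair the arrays. Nothing says whether replicates came from separate cultures, so P values measure only the spread between these arrays, which may be technical, and the number of arrays limits the precision. Between 14454 and 16167 probes were detected per array.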

Additional observations from a re-analysis of the deposited data

Results flagged for a closer look

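For 2 probes every array of one ZNF658 siRNA lay on the opposite side of its own control mean from every array of the other. IFI6 ILMN_2347798 stood at -0.45 to -0.22 from the control mean on the 3 siRNA 1 arrays and at 0.02 to 0.26 on the 3 siRNA 2 arrays, a difference of effects of -0.49 on the log2 scale (standard error 0.17, adjusted P = 0.335 from limma). MX1 ILMN_1662358 stood at 0.20 to 0.61 and at -0.77 to -0.49, a difference of 0.94 that was not tested. MX1 was detected on 1 of 12 arrays, a control siRNA 2 array that raises its group's mean, so these offsets are between background signals and give no direction.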

How the results depend on the processing

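With siRNA 2 against its control, 0 member probes were called under every alternative run. With siRNA 1 the count of 2 became 4 with median scaling, 0 with detection on all 12 arrays (which leaves IFIT1, IFIT2, IFIH1 and CCL5 ILMN_1773352 untested) and 5 with array quality weights. Between the controls the count of 2 became 1 with median scaling and 4 with array quality weights. IFIT1 joined the IFI6 probes as called there without the arrays numbered 3. For the difference of the effects the count of 0 became 4 with median scaling, 7 with array quality weights, 1 with all 6 controls as 1 group, 3 with control siRNA 2 for both and 5 when the siRNA 2 pair lacked its arrays numbered 3. Over all probes, array quality weights gave 841, 600, 2516 and 2729 calls with siRNA 1, with siRNA 2, between the controls and for the difference, in place of 2, 0, 301 and 0. Median scaling gave 10 with siRNA 1, 169 between the controls and 51 for the difference, and control siRNA 2 for both gave 161 with siRNA 1 and 285 for the difference. With no detection filter there were 184 calls between the controls, and with detection on all 12 arrays 170. Without the arrays numbered 3 there were 3 with siRNA 1, 268 with siRNA 2, 819 between the controls and 1427 for the difference. The authors' table gave 3 with siRNA 1, and all 6 controls as 1 group gave 9 for the difference.

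The replicate block left 1 member called with siRNA 1 (IFIT2) and 0 with siRNA 2, 2 between the controls and 0 for the difference, among 1, 0, 201 and 0 calls over all probes. Residuals of arrays with the same number correlated at -0.59 to 0.40, and for 3 of 12 arrays the closest array was one with the same number. Leaving out each array in turn gave 1 to 3 calls with siRNA 1, 0 with siRNA 2, 1 to 3 between the controls and 0 to 2 for the difference, among 1 to 7, 0, 127 to 572 and 0 to 26 calls over all probes. IFIT2 was called with siRNA 1 in all 12 of these fits, and IFIT1 in 6, losing its call without replicate 1 or 2 of ZNF658 siRNA 1, any control siRNA 1 array or replicate 2 of ZNF658 siRNA 2 (adjusted P from limma of 0.0764 to 0.444). IFIT1 also lost its call against control siRNA 2 (adjusted P = 0.0686), against the 6 controls together (0.287) and under the replicate block (0.0512). CCL5 ILMN_2098126 was called without replicate 3 of control siRNA 2 (adjusted P = 0.00304). In the authors' table the siRNA 1 differences were smaller, 0.63 for IFIT1 and 0.67 for IFIT2 on the log2 scale, and both stayed called. The direction of IFI6 depended on the control. The siRNA 1 difference became 0.96 for ILMN_1687384 and 0.59 for ILMN_2347798 against control siRNA 2, and 0.13 for ILMN_2347798 against all 6 controls. The difference of effects became 0.93 for ILMN_1687384 and 0.42 for ILMN_2347798 with all 6 controls as 1 group and with control siRNA 2 for both. The cause of the shifts was not tested. Signals of IFIT3, MX1 and, with control siRNA 1, IFIT1 and IFIT2 lay near background, which limits their folds to bounds or to no value.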
